A study of Mus musculus with 5 samples.

Results

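The genes described here belong to families known for enzymes that modify or move nucleosomes or modify DNA, though not every member is such an enzyme. They were compared between the thymus of mice lacking ZAS3 and the thymus of wild-type littermates. Membership was set by gene symbol: histone deacetylases (Hdac), sirtuins (Sirt), lysine acetyltransferases (Kat), SET domain methyltransferases (Setd, Ezh), histone demethylases (Kdm), DNA methyltransferases (Dnmt), TET dioxygenases (Tet), CHD helicases (Chd) and SWI/SNF-related proteins (Smarc). The array held 80 such genes among 16504 named genes, and 94 probes measured them. A further probe, annotated to Kdm2a and another gene, was not used. No filter on low values was applied, so all 80 genes were tested.

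Acetyl groups on histone tails are added by KAT enzymes and removed by deacetylases and sirtuins, while methyl groups are added by SET domain enzymes and removed by KDM enzymes. DNMT enzymes methylate cytosine in DNA and TET enzymes oxidise the methyl group. Most CHD and SMARC proteins use ATP, or belong to complexes that use ATP, to slide or evict nucleosomes. In the thymus, several of these complexes act on the silencing and activation of Cd4 and Cd8 and on the survival of developing T cells.

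RNA came from whole thymus, per the sample labels, of ZAS3-null and wild-type littermates of 6 to 8 weeks that were matched for sex and age, and each of 5 two-colour arrays set a mutant against a wild-type thymus sample. ZAS3 is the zinc finger protein encoded by Hivep3 that binds kappaB-like DNA. The strain, the sexes, the deleted part of Hivep3 and any control allele shared by both genotypes are not given in the labels. The design text speaks of thymocytes in place of whole thymus, and it places the mutant RNA in Cy3 where the sample labels place it in Cy5. Values are log2 ratios whose direction is therefore not settled. Sample titles and channel order make it likely that positive means more RNA in the mutant. No array had the dyes exchanged, so a dye effect and a genotype effect cannot be told apart. A ratio carries no level, so the labelled tissue could not be checked against the presence of its markers. In whole tissue, fewer cells of a type and less RNA per cell cannot be told apart. The labels number the thymuses of each genotype by array and do not say whether each is a single animal or a pool, so p-values measure the spread between these arrays. For Hivep3 itself the log2 ratio averaged 0.08 ± 0.07 (SD, n = 5; limma adjusted p = 0.37), and 0.17 ± 0.09 (0.141) with the correction described next.

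Ratios rose across the slide on every array. Medians over the first 10 slide columns ran from -0.25 to -0.11, and those over the last 10 from 0.23 to 0.31. Results are therefore given in both of 2 forms, as deposited and position corrected, the latter after subtracting on each array a local median over 21 by 21 spots. The threshold was an adjusted p of 0.05 in limma, adjusted over all 20861 features of the array. Leaving out 1 array also changed how many of all named genes passed. As deposited 24.8% passed with all 5 arrays, and 13.2%, 28.9%, 17.3%, 8.17% and 4.45% without arrays 1 to 5. After correction 2.91% passed with all 5, and 0.345%, 6.98%, 0.648%, 0.170% and 0.139% without arrays 1 to 5. Calls of single genes lost that way are to be read beside these shares.

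Most chromatin enzymes had a negative ratio, and those past the threshold after correction were all negative. After position correction 4 of the 80 genes passed on the negative side (5.00%), Hdac10, Hdac7, Setd6 and Kdm1a, against 2.30% of all named genes. On the positive side 0 of the 80 passed in limma, where 0.612% of all named genes did, and 7 of the 80 had a positive ratio with an unadjusted p under 0.05, against 11.6% of all. As deposited, 21 genes were negative and 8 positive past the threshold against 12.9% and 12% of all named genes. Hdac10, Setd6 and Kdm1a were negative past the threshold in both forms, as were 1.86% of all named genes, and 0 members were positive in both, against 0.503%.

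The median of the 80 mean log2 ratios was -0.12 as deposited and -0.07 after correction, beside -0.03 and -0.01 over all named genes. After correction 56 of the 80 means lay below 0 (against 51.6% of all genes; 51 of 80 as deposited, against 53.7%), and 25 genes were negative on every array (31.2%, against 14.5%). A further 6 were positive on every array (7.50%, against 11.7%). As deposited 25 were negative and 12 positive on every array, against 20.5% and 16.7% of all. The changes were small. With a rule of at least 1.5-fold on at least 4 arrays, which has no test, 1 member passed as deposited, the demethylase gene Kdm3a (negative), and 0 passed after correction. On the negative side 0.460% of all named genes passed that rule as deposited and 0.194% after correction, and on the positive side 0.406% and 0.0485%.

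Counts at other thresholds show how close many of the enzymes lay to the one used. In either direction together, 4 members passed after correction (2.91% of all genes) and 29 as deposited (24.8%). At an adjusted p of 0.1 in limma, 18 members were negative after correction (8.43% of all genes), and Chd8 alone was positive (4.60% of all). As deposited, the same limit gave 27 negative and 14 positive members (19.2% and 17% of all). At 0.01 the members numbered 0 in each direction after correction (0.0121% positive and 0.164% negative of all), and as deposited 0 were positive (2.44%) and 7 negative (2.42%). At an unadjusted p under 0.05, 27 members were negative in each form (21.6% of all as deposited, 15.4% after correction), and 15 were positive as deposited (18.7% of all).

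**Figure D1:**
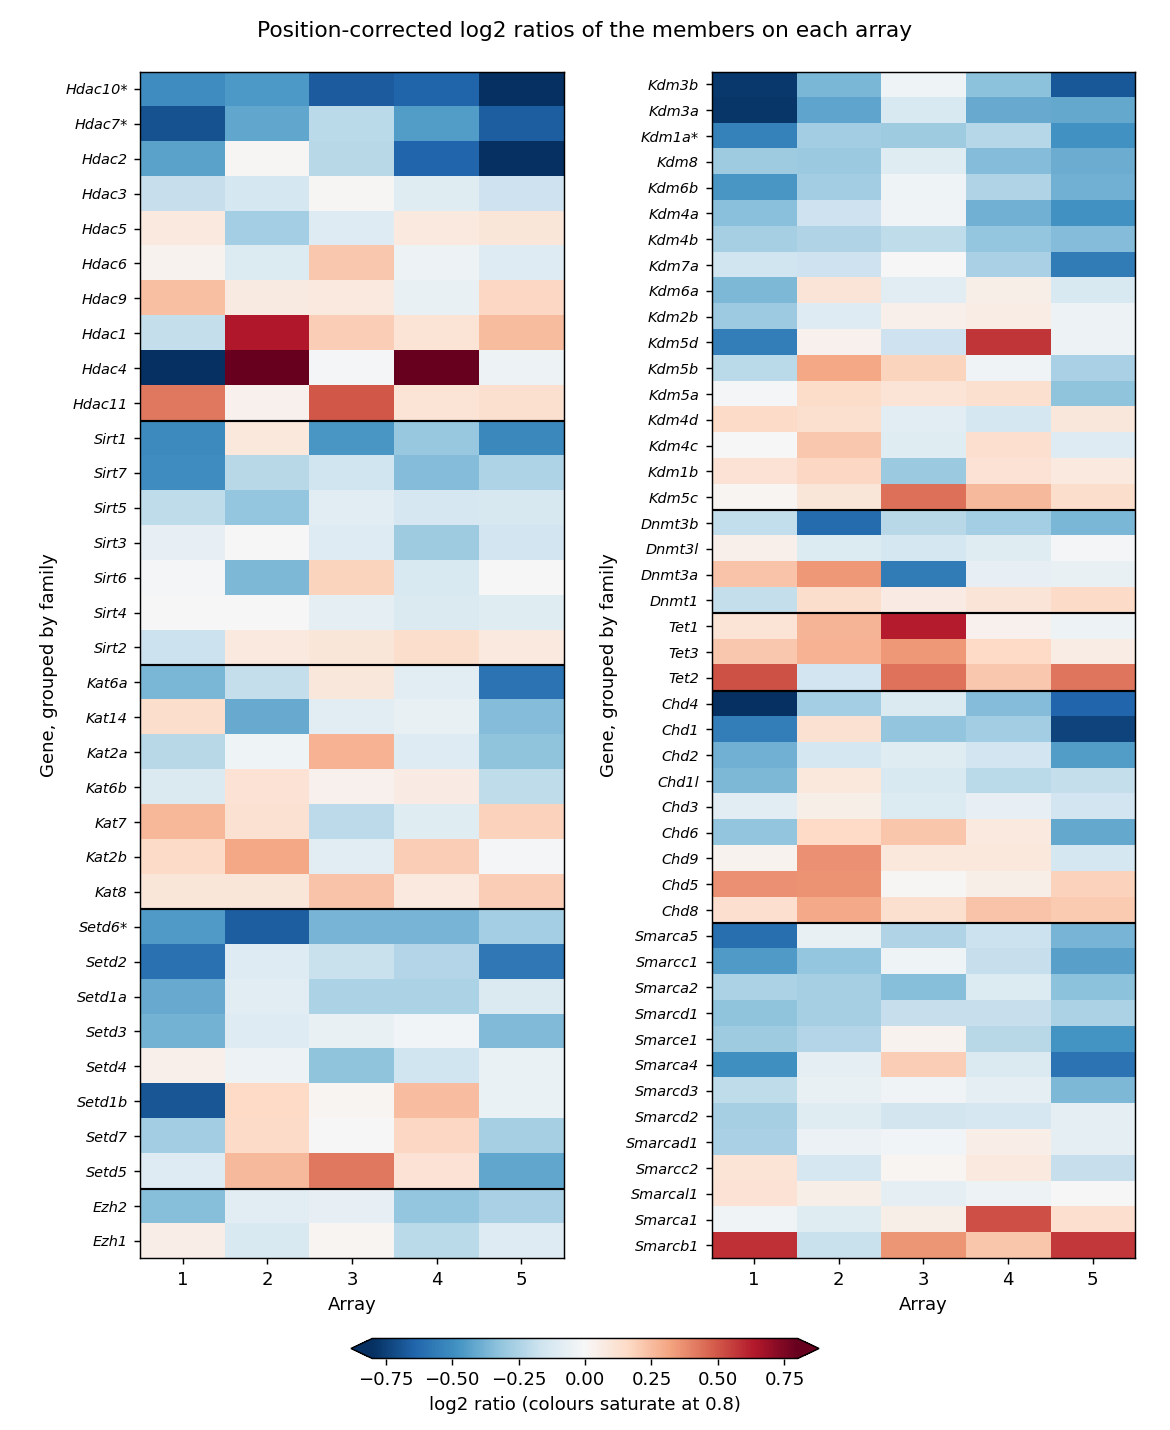
Position-corrected log2 ratio of each of the 80 genes (rows, grouped by family and ordered by mean) on each of the 5 arrays (columns), with blue for negative and red for positive ratios, and an asterisk for the 4 genes past the threshold. Blue prevails in the Setd, Kdm and Smarc families, while the Tet family is mostly red.

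The arrays did not carry the negative shift equally. The median position-corrected ratio of the 80 genes was -0.20 on array 1, -0.06 on array 2, -0.05 on array 3, -0.09 on array 4 and -0.16 on array 5, while that of all named genes lay between -0.01 and 0 on every array. After correction it was thus below the median of all named genes on each array, and farthest below it on arrays 1 and 5. As deposited the member medians were -0.18, -0.10, 0, -0.03 and -0.16 on arrays 1 to 5. Those of all named genes were 0, -0.07, 0, 0 and 0, so on array 3 the medians were equal. After correction, arrays 1 and 5 had the highest Pearson correlation over the 80 genes (r = 0.70, Spearman's rho = 0.71). The lowest Pearson correlation was that of arrays 1 and 2 (r = 0.19, rho = 0.35), and the lowest rho that of arrays 2 and 3 (r = 0.29, rho = 0.31). These correlations are across genes, which are not independent replicates and share the arrays.

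**Figure D2:**
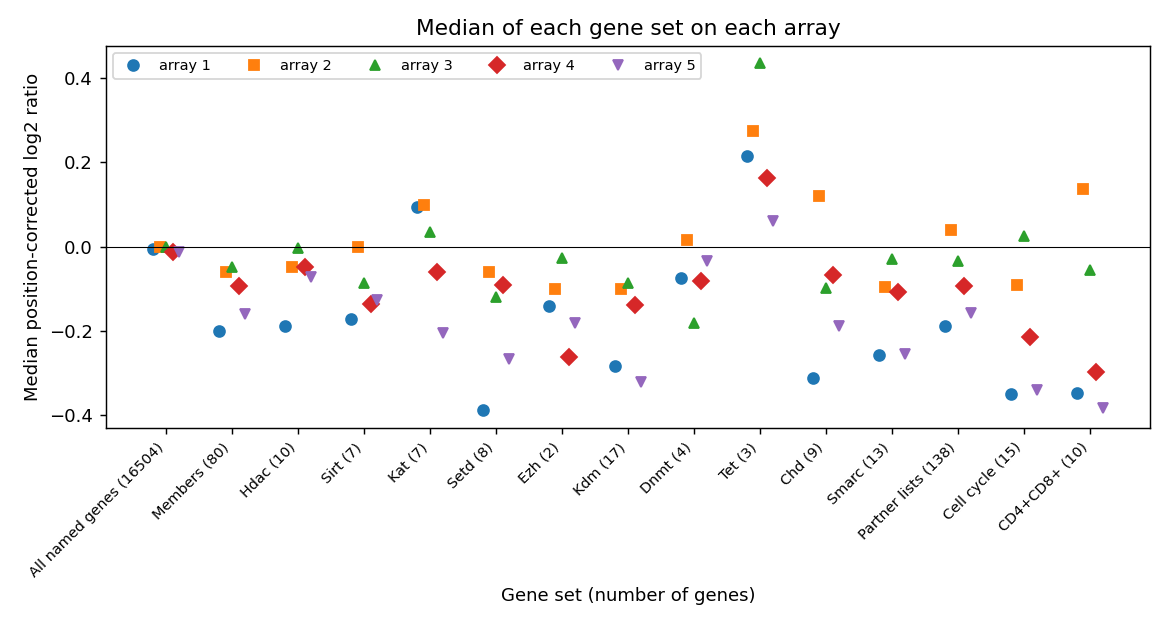
Median position-corrected log2 ratio (vertical axis) of each gene set (horizontal axis, with its number of genes) on each of the 5 arrays (points). The members lie below 0 on all 5 arrays, farthest on arrays 1 and 5, and the 3 Tet genes lie above 0 on all 5.

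Marker lists moved with these array differences. On arrays 1 to 5, the medians of 15 cell cycle genes were -0.35, -0.09, 0.02, -0.21 and -0.34 after correction, and those of 10 genes of CD4+CD8+ thymocytes were -0.35, 0.14, -0.05, -0.30 and -0.38. Both lists were lowest on arrays 1 and 5, as the chromatin enzymes were. Of the cell cycle genes 14 of 15 had a mean below 0 (range -0.46 to 0.10), against 51.6% of all named genes. On the negative side 2 of them passed in limma (2.30% of all named genes did), the mitotic kinase genes Aurkb (-0.46 ± 0.15, adjusted p = 0.0269) and Bub1 (-0.40 ± 0.07, 0.0196). Of the thymocyte genes 8 of 10 lay below 0 (range -0.61 to 0.33) and 0 passed in limma after correction. As deposited, 4 of those 10 were negative and 2 positive past the threshold, 5 of the 15 cell cycle genes were negative and 0 positive in limma, and 4 of 6 B cell genes were positive and 1 negative, against 12.9% negative and 12% positive of all named genes. Medians after correction were 0.19 for 6 B cell genes, 0.01 for 6 macrophage and dendritic cell genes, 0.10 for 8 thymic epithelial genes, 0.21 for 5 fat genes and 0.08 for 2 red cell genes. Of these lists 1 gene passed after correction, Foxn1, the thymic epithelial regulator (0.56 ± 0.16, adjusted p = 0.0135). The red cell median ran from -0.82 on array 5 to 1.46 on array 2. The part of any of these cell types in the chromatin results was not tested.

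Hdac10 had the most negative position-corrected ratio of the 80 genes. It encodes a class IIb deacetylase found largely in the cytoplasm and known for removing acetyl groups from polyamines. Its position-corrected log2 ratios on arrays 1 to 5 were -0.50, -0.46, -0.67, -0.64 and -0.92, a mean of -0.64 ± 0.18 (1.56-fold; limma adjusted p = 0.0105). All 5 arrays were negative, with array 5 lowest. As deposited they were -0.41, -0.48, -0.56, -0.45 and -0.81 (mean -0.54 ± 0.16, adjusted p = 0.00761). The corrected call was lost without array 3 (adjusted p = 0.0558) or array 4 (0.071), and the deposited call held with any 1 array left out.

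Setd6 encodes a lysine methyltransferase known for methylating the NF-kB subunit RelA. Its position-corrected ratios on arrays 1 to 5 were -0.46, -0.66, -0.37, -0.37 and -0.27, a mean of -0.43 ± 0.15 (1.34-fold; limma adjusted p = 0.0342). Array 2 was lowest and every array was negative. Its probe lay in slide column 1, at the low edge, where the local median drew on spots to 1 side only. Over 13 alternatives that keep the exchanged order, its corrected mean ran from -0.46 to -0.32. The deposited values ran from -0.80 to -0.43 (mean -0.58 ± 0.13, limma adjusted p = 0.00525). The deposited call held with any 1 array left out. The corrected call was lost without array 1 (0.117), array 3 (0.0798), array 4 (0.13) or array 5 (0.118).

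Kdm1a encodes LSD1, the flavin-dependent demethylase of the CoREST complex. Corrected ratios were -0.54, -0.28, -0.28, -0.23 and -0.48 on arrays 1 to 5, a mean of -0.36 ± 0.14 (1.28-fold; limma adjusted p = 0.0481). The same 2 arrays that were low for the group as a whole, 1 and 5, were lowest here. As deposited the mean was -0.33 ± 0.15 (adjusted p = 0.0238). That call was lost without array 1 (0.0674) or array 5 (0.0986). The corrected call was lost without array 1 (0.138), array 3 (0.0874), array 4 (0.134) or array 5 (0.209).

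Hdac7 encodes a class IIa deacetylase that is abundant in CD4+CD8+ thymocytes and leaves the nucleus on T cell receptor signalling. Its ratios were -0.41, -0.18, 0.16, -0.06 and -0.30 as deposited, a mean of -0.16 ± 0.22 that did not pass (limma adjusted p = 0.262). The probe lay in column 96, near the high edge of the slide. After correction the values were -0.70, -0.42, -0.22, -0.45 and -0.66, a mean of -0.49 ± 0.20 (1.40-fold; adjusted p = 0.0362). Arrays 1 and 5 were lowest and array 3 highest in both forms. The corrected call was lost without array 1 (0.117), array 4 (0.135) or array 5 (0.174).

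**Figure D3:**
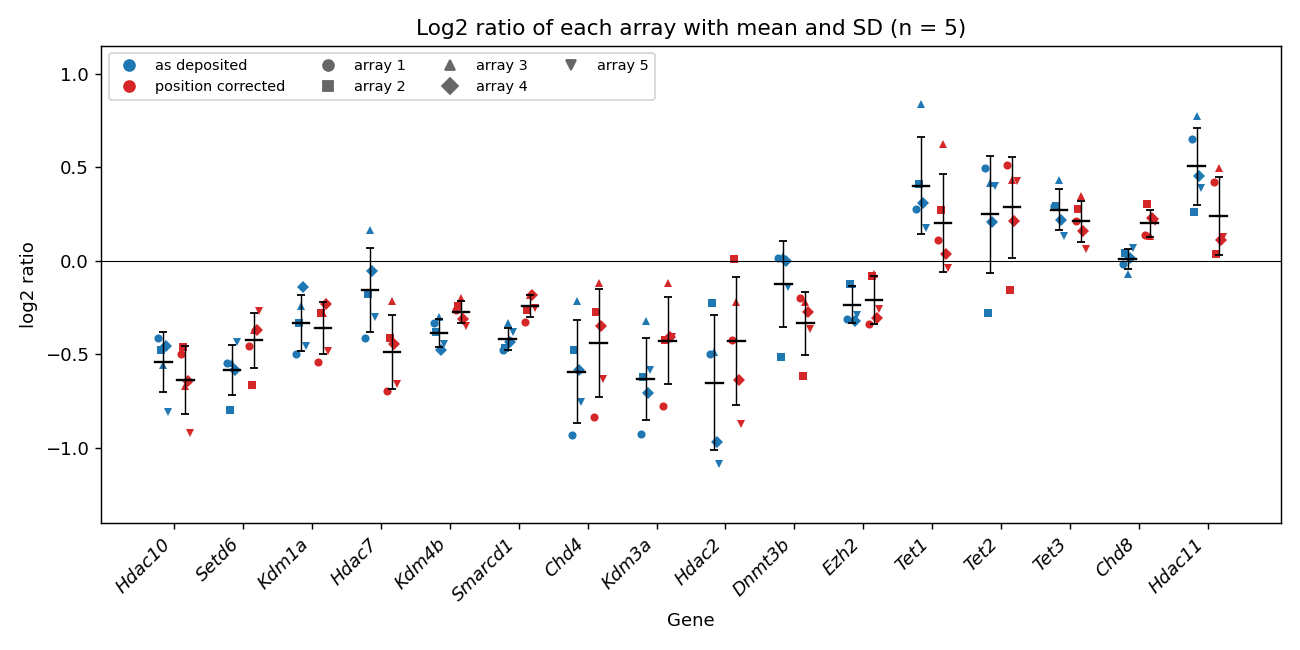
Log2 ratio (vertical axis) of 16 members (horizontal axis) on each array, as deposited (blue) and position corrected (red), with one marker shape per array, the mean as a bar and the SD as whiskers (n = 5). Hdac10, Setd6 and Kdm1a lie below 0 on every array in both forms, and Hdac7 does so after correction alone.

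Because ZAS3 binds kappaB-like DNA, the promoters of the members were searched on both strands for 3 motifs. These were the kappaB consensus GGGRNNYYCC (R is A or G, Y is C or T, N any base), the AP-1 site TGANTCA and the GC box GGGCGG. Sequences are RefSeq windows of build GRCm38.p6 that run from 250 bases before a transcript start to 50 after it, and 67 of the 80 genes matched the table. Hdac10 had no such window, so its promoter was not searched. Of the genes past the threshold after correction, Hdac7, Kdm1a and Setd6 are shown for the 250 bases before the outermost start listed, with any of the 3 motifs in capitals.
Hdac7 (minus strand, chr15:97844503-97844752): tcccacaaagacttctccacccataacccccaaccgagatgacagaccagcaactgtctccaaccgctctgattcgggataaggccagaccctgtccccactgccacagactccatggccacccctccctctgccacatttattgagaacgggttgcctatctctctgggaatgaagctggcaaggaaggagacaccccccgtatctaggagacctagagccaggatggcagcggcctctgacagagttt
Kdm1a (minus strand, chr4:136602724-136602973): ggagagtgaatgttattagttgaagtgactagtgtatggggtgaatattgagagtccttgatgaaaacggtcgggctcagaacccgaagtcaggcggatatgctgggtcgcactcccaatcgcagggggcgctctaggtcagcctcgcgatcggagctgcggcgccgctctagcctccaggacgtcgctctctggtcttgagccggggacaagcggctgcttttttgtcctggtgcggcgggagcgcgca
Setd6 (plus strand, chr8:95715663-95715912): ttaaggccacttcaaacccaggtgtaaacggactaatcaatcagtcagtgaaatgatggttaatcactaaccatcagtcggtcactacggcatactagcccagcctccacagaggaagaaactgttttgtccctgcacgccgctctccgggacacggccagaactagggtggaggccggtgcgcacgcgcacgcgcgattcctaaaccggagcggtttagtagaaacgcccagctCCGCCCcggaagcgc
None of the 3 stretches held the kappaB consensus or TGANTCA, and that of Setd6 held 1 GC box.

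Over all members, 14 of 93 windows held the kappaB consensus (15.1%, against 8.46% of all 32851 windows), 10 held TGANTCA (10.8%, against 7.81%) and 61 held the GC box (65.6%, against 35.7%). Matches of different motifs may overlap, and a match describes letters only. Overlapping windows of Kat6b held the same kappaB match and were counted separately, and base composition was not matched in these shares. The 13 genes with a kappaB consensus had a median corrected ratio of -0.07, and the 54 without one -0.06. Of the former 11 of 13 lay below 0, and of the latter 34 of 54, and the difference was not tested. Of the 13, 5 were negative on every array after correction, against 14.5% of all named genes. Among all 67 members with a window 20 were, and among all 80 members 31.2%, so this trait was common in the group. For those 5 genes, picked by their ratios, the first match (capitals, overlapping matches joined) is shown with the bases on each side.
Chd4 (plus strand, chr6:125096100-125096149): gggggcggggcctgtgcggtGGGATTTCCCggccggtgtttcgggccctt
Dnmt3b (plus strand, chr2:153649258-153649307): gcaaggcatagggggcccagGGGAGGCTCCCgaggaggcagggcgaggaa
Sirt5 (plus strand, chr13:43365471-43365520): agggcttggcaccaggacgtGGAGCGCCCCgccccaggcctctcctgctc
Smarca2 (plus strand, chr19:26604966-26605015): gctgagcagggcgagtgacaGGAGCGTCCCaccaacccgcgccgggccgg
Smarcd1 (plus strand, chr15:99702250-99702299): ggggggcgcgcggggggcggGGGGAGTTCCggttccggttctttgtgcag
These 5 genes had corrected means of -0.44 (Chd4), -0.33 (Dnmt3b), -0.17 (Sirt5), -0.26 (Smarca2) and -0.24 (Smarcd1), and none of them passed the threshold after correction in limma.

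Among the histone deacetylases other than Hdac10 and Hdac7, ratios went both ways. Hdac1 and Hdac2, the paired catalytic subunits of the NuRD, Sin3 and CoREST complexes, had opposite signs. Hdac2 had deposited ratios of -0.50, -0.23, -0.49, -0.97 and -1.08 on arrays 1 to 5, a mean of -0.65 ± 0.36 (limma adjusted p = 0.0198), and Hdac1 had -0.03, 0.67, 0.41, 0.32 and 0.39, a mean of 0.35 ± 0.25 (0.0498). On every array the ratio of Hdac1 exceeded that of Hdac2. After correction the means were -0.43 ± 0.34 and 0.20 ± 0.30 (adjusted p = 0.102 and 0.3), and both missed the threshold. The deposited call of Hdac2 was lost when array 4 or 5 was left out (adjusted p up to 0.0721) and that of Hdac1 on leaving out array 2, 3, 4 or 5 (up to 0.145). Their probes lay in columns 18 and 72.

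Hdac11, the class IV deacetylase, was positive on every array in both forms, with 0.51 ± 0.20 as deposited (adjusted p = 0.0124, lost without array 5 at 0.0522) and 0.24 ± 0.21 after correction (0.149). Hdac4, another class IIa gene, varied most of all members between arrays. Its corrected ratios were -0.97, 1.10, -0.01, 1.04 and -0.04, so arrays 2 and 4 were high and array 1 low. Hdac3, Hdac5, Hdac6 and Hdac9 had corrected means between -0.12 and 0.10 and did not pass in either form.

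Of the 7 sirtuins, the NAD-dependent deacylases, 6 had a corrected mean below 0, against 51.6% of all named genes. After correction 0 passed in limma, against 2.91% of all. Sirt1, the nuclear deacetylase of histones and p53, had -0.43 ± 0.22 as deposited (limma adjusted p = 0.0235) and -0.34 ± 0.25 after correction (0.0993). Array 2 was the exception, with a corrected 0.08 against -0.52 to -0.30 on the other 4. Sirt7, a nucleolar sirtuin, had 0.02 as deposited and -0.29 ± 0.13 after correction (adjusted p = 0.0665), negative on 5 of 5 arrays. The mitochondrial desuccinylase gene Sirt5 had -0.32 ± 0.12 as deposited (0.0196) and -0.17 ± 0.09 after correction (0.138). As deposited, the call of Sirt1 was lost on leaving out array 1, 3, 4 or 5 (adjusted p up to 0.0934) and that of Sirt5 on leaving out array 1, 4 or 5 (up to 0.0683). Sirt2, Sirt3, Sirt4 and Sirt6 had corrected means between -0.12 and 0.04.

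The 7 corrected means of the lysine acetyltransferase genes ran from -0.23 for Kat6a (MOZ) to 0.14 for Kat8 (MOF), with a median of -0.02, and 0 passed after correction in limma. Kat8 was positive on 5 of 5 corrected arrays (0.14 ± 0.07, adjusted p = 0.184). As deposited Kat6a was negative (-0.40 ± 0.24, adjusted p = 0.032) and Kat2b, which encodes PCAF, positive (0.33 ± 0.16, 0.026). Their probes lay in columns 4 and 85, at the low and high sides of the slide. Both deposited calls were lost on leaving out array 1, 4 or 5 (adjusted p up to 0.0938 and 0.0908).

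The SET domain methyltransferases leaned negative, with 7 of the 8 Setd means below 0 after correction, against 51.6% of all named genes. The 4 genes Setd6, Setd2, Setd1a and Setd3 were negative on every array, as were 14.5% of all named genes. Setd2, the enzyme that trimethylates histone H3 along transcribed genes, was measured by 2 probes with deposited means of -0.56 and -0.50. Together they gave -0.53 ± 0.22 (limma adjusted p = 0.0125) and -0.34 ± 0.23 after correction (0.0907). Setd3, which methylates a histidine of actin, had -0.39 ± 0.12 (0.0119) and -0.18 ± 0.17 after correction (0.189). Setd1b, Setd4, Setd5 and Setd7 had corrected means between -0.11 and 0.05. The deposited call of Setd2 was lost when array 4 or 5 was left out (adjusted p up to 0.0576) and that of Setd3 without array 5 (0.0602).

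Ezh2, the main methyltransferase of Polycomb repressive complex 2 in dividing cells, had position-corrected ratios of -0.34, -0.08, -0.07, -0.31 and -0.26 on arrays 1 to 5. Arrays 1, 4 and 5 were low and arrays 2 and 3 close to 0, and the cell cycle and thymocyte lists were likewise lower on arrays 1, 4 and 5 than on 2 and 3. The mean was -0.21 ± 0.13 (limma adjusted p = 0.118), and -0.23 ± 0.10 as deposited (0.0417, lost without array 1, 3, 4 or 5, up to 0.144). Its relative Ezh1 had -0.20 ± 0.15 as deposited and -0.07 ± 0.11 after correction, and did not pass in either form.

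Histone demethylases formed the largest family, and 7 of the 17 were negative on every array after correction: Kdm1a, Kdm3a, Kdm3b, Kdm4a, Kdm4b, Kdm6b and Kdm8, where 14.5% of all named genes were. Kdm1a alone passed after correction, on the side where 2.30% of all did. As deposited 7 genes were negative and 1 positive past the threshold, against 12.9% and 12% of all. Kdm4b, a demethylase of histone H3, had the steadiest values among those 7, with corrected ratios of -0.26, -0.24, -0.20, -0.31 and -0.35. Its mean was -0.27 ± 0.06 (limma adjusted p = 0.0536), just above the threshold, and -0.39 ± 0.07 as deposited (0.00894, lost without array 5 at 0.0527). Kdm3a had -0.63 ± 0.22 as deposited (0.00833), a call that held with any 1 array left out, and -0.43 ± 0.23 after correction (0.0612). The related Kdm3b had nearly the same corrected mean, -0.44 ± 0.30 (0.0786), from a probe at the other side of the slide (column 99 against 11).

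Kdm6b and Kdm6a both remove the methyl groups that EZH enzymes add. As deposited Kdm6b had -0.45 ± 0.13 (limma adjusted p = 0.00939) and Kdm6a -0.28 ± 0.14 (0.0355). After correction they had -0.28 ± 0.16 (0.0854) and -0.08 ± 0.18 (0.531). Kdm7a (-0.43 ± 0.19, 0.016) and Kdm8 (-0.34 ± 0.10, 0.0142) also passed as deposited, and had -0.23 and -0.28 after correction (0.159 and 0.0638). Kdm1b, the relative of Kdm1a, was positive as deposited (0.31 ± 0.18, 0.038) and near 0 after correction (0.04 ± 0.19). As deposited, the call of Kdm6b was lost without array 5 (adjusted p = 0.0524), those of Kdm7a and Kdm8 on leaving out array 4 or 5 (up to 0.0637 and 0.0696), that of Kdm6a on leaving out array 1, 3, 4 or 5 (up to 0.12) and that of Kdm1b on leaving out array 1, 2, 4 or 5 (up to 0.134). Kdm4a had a corrected mean of -0.28 ± 0.18 (0.0977), and Kdm2b, Kdm4c and Kdm4d lay between -0.07 and 0.03. The Kdm5 genes, demethylases of active promoters, ran from -0.03 to 0.19 after correction. Among them Kdm5d lies on the Y chromosome, and its deposited ratios were -0.71, -0.15, -0.24, 0.41 and -0.16 on arrays 1 to 5, with array 1 lowest and array 4 alone above 0.

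**Figure D4:**
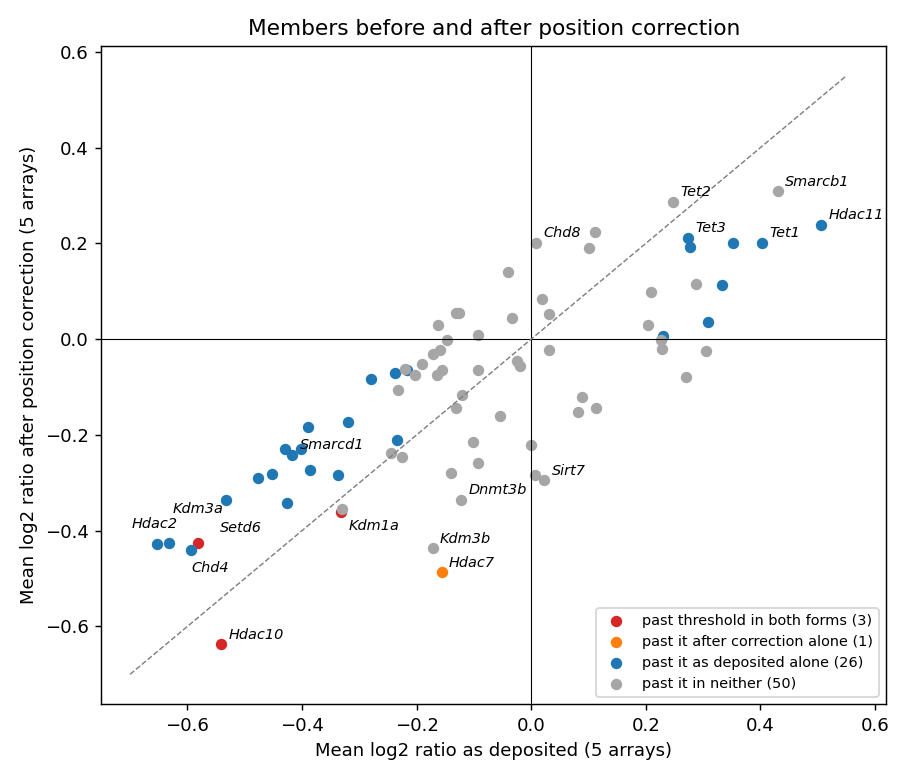
Mean log2 ratio over 5 arrays as deposited (horizontal axis) against the same after position correction (vertical axis) for the 80 genes (points), coloured by the form in which they passed the threshold, with a dashed line of equality. Of the 80, 3 passed in both forms, 1 after correction alone, 26 as deposited alone and 50 in neither.

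The 3 TET genes, whose products oxidise DNA methylation, had positive means in both forms. Position-corrected ratios of Tet3 were 0.22, 0.28, 0.35, 0.16 and 0.06 on arrays 1 to 5, a mean of 0.21 ± 0.11 (limma adjusted p = 0.106), and its 2 probes, in columns 3 and 90, had 0.25 and 0.18. Tet1 had 0.11, 0.27, 0.63, 0.04 and -0.04 (mean 0.20 ± 0.26, 0.26), highest on array 3. Tet2 had 0.51, -0.15, 0.44, 0.22 and 0.43 (0.29 ± 0.27, 0.149), with array 2 alone below 0. None of the 3 passed after correction. As deposited Tet1 (0.40 ± 0.26, 0.0368) and Tet3 (0.27 ± 0.11, 0.0287) were positive past the threshold, calls lost in 4 of the 5 fits that leave out 1 array (adjusted p up to 0.0932 and 0.0793). The 2 Tet2 probes had corrected means of 0.49 and 0.08, and the higher one had an SD of 0.67.

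Of the 4 DNA methyltransferase genes, Dnmt3b, a de novo enzyme, had the most negative corrected mean. Its corrected ratios were -0.20, -0.61, -0.22, -0.28 and -0.36 (mean -0.33 ± 0.17, limma adjusted p = 0.0645), with array 2 lowest. As deposited it had -0.12 ± 0.23 (0.382). Dnmt1, the maintenance enzyme that copies methylation at replication, had -0.13 ± 0.11 as deposited and 0.05 ± 0.14 after correction, so its sign turned. Dnmt3a had 0.03 ± 0.31 and -0.02 ± 0.35. The catalytically inactive cofactor gene Dnmt3l had -0.22 ± 0.09 as deposited (0.0454, lost without any 1 array, with adjusted p between 0.0619 and 0.138) and -0.06 ± 0.08 after correction.

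Chd4, the ATPase of the NuRD complex, had the most negative mean of the 9 CHD genes in both forms. Corrected ratios were -0.84, -0.27, -0.12, -0.35 and -0.63 on arrays 1 to 5, again lowest on arrays 1 and 5, with a mean of -0.44 ± 0.29 (limma adjusted p = 0.0753). As deposited it had -0.59 ± 0.27 (0.0139, lost without array 4 or 5, up to 0.0635). Chd8, a large CHD ATPase, was positive on every array after correction (0.20 ± 0.07, 0.097) and 0.01 ± 0.05 as deposited. Chd5 was positive as deposited (0.28 ± 0.14, 0.0355, lost without array 1, 2, 4 or 5, up to 0.122) and had 0.19 ± 0.17 after correction (0.177). That rested on 1 probe, since its 2 probes had deposited means of 0.59 and -0.03. Chd1 and Chd2 had corrected means of -0.35 ± 0.32 and -0.25 ± 0.16, and Chd1l, Chd3, Chd6 and Chd9 lay between -0.16 and 0.08.

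Smarc genes were mostly negative, and 10 of the 13 means lay below 0 after correction, against 51.6% of all named genes. Of the 13, 6 were negative on every array, against 14.5% of all. None passed after correction in limma. Smarcd1, a SWI/SNF accessory subunit, had the smallest corrected p of the family. Its deposited ratios were -0.48, -0.46, -0.33, -0.43 and -0.38 (mean -0.42 ± 0.06, adjusted p = 0.00691), a call that held with any 1 array left out, and its corrected mean was -0.24 ± 0.06 (0.0663). Smarca5, the ISWI ATPase, had -0.48 ± 0.15 (0.00984, lost without array 5 at 0.053) and -0.29 ± 0.21 (0.106). The scaffold subunit gene Smarcc1 had 0.01 ± 0.21 as deposited and -0.28 ± 0.18 after correction (0.0909), from a probe in column 99.

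Smarca4 and Smarca2 encode BRG1 and BRM, the alternative ATPases of SWI/SNF. Their corrected means were -0.22 ± 0.32 (limma adjusted p = 0.298) and -0.26 ± 0.09 (0.0674). For both, 1 deposited probe mean was negative and the other positive, and after correction both probes of each were below 0 (-0.30 and -0.13 for Smarca4, -0.46 and -0.06 for Smarca2). Smarcb1, a core subunit, went the other way, with corrected ratios of 0.58, -0.18, 0.35, 0.22 and 0.57 (mean 0.31 ± 0.31, 0.159). Array 2 alone was negative. Smarcad1 (-0.24 ± 0.11, 0.0418) and Smarcal1 (0.23 ± 0.06, 0.0314) passed as deposited, calls lost without any 1 array and on leaving out array 1, 3, 4 or 5 (adjusted p up to 0.123 and 0.113), and had -0.07 and 0.01 after correction. The subunit and ATPase genes Smarcd2, Smarcd3, Smarce1, Smarcc2 and Smarca1 had corrected means of -0.14, -0.14, -0.24, -0.02 and 0.11.

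Of the 14 genes with 2 probes, both probes had the same sign for 7 as deposited and for 9 after correction. Chd9, Kdm2b, Setd7 and Smarcal1 had probes of opposite sign in both forms. The widest gap of these was that of Kdm2b, with corrected probe means of -0.31 and 0.18 from columns 11 and 76. The means of these 4 genes therefore averaged probes that disagreed, and the deposited call of Smarcal1 averaged probe means of -0.06 and 0.52.

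The slide position of the probes moved with the deposited ratios of the members. Of the 24 genes whose mean column lay between 1 and 35, 14 were negative and 0 positive past the threshold in limma as deposited, and of the 27 from column 71 on, 2 were negative and 6 positive. Of all named genes in the first of these column ranges, 1381 of 5402 were negative and 15 positive, and in the last 62 of 5267 were negative and 1698 positive. The members' median deposited ratios were -0.30 and 0.11. For all named genes in the same columns the medians were -0.18 and 0.20, so the members lay below them on both sides. After correction the member medians in the first, middle and last 35 columns were -0.14, -0.06 and -0.12. Across the 80 genes the correlation of mean ratio with slide column was 0.65 as deposited and 0.08 after correction, a description across genes that share the slide.

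**Figure D5:**
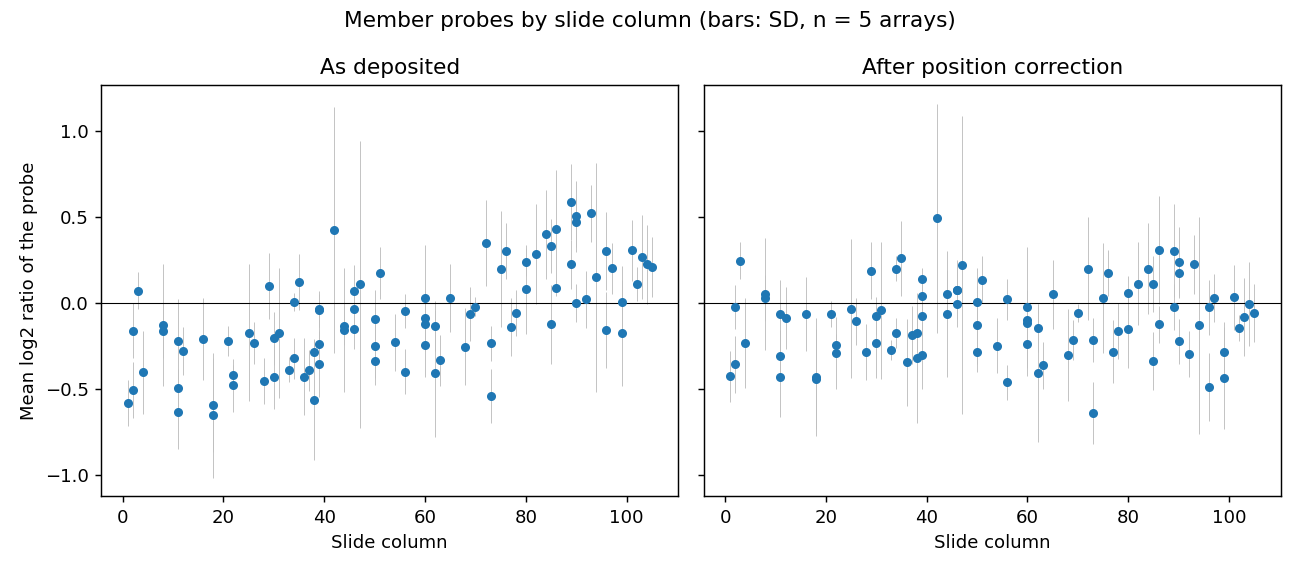
Mean log2 ratio of each of the 94 member probes (points, with SD over 5 arrays as bars) against its slide column, as deposited (left) and position corrected (right). The deposited ratios rise from left to right across the slide, and the corrected ratios do not.

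The proteins that work with these enzymes were described from 10 lists of complex partners and related enzymes, of which 138 genes of 150 were measured. After correction 5 of the 138 were negative and 1 positive past the threshold, against 2.30% and 0.612% of all named genes. As deposited 33 were negative and 10 positive, against 12.9% and 12% of all. The median corrected ratio was -0.09, and 33 of the 138 were negative on every array (23.9%, against 14.5% of all named genes). The negative ones were Dot1l, which methylates the globular part of histone H3 (-0.56 ± 0.20, limma adjusted p = 0.023), Ss18, a SWI/SNF subunit (-0.42 ± 0.12, 0.0263), Jarid2, a Polycomb cofactor (-0.39 ± 0.16, 0.049), and the Sin3 complex genes Sap30 (-0.33 ± 0.11, 0.0458) and Suds3 (-0.31 ± 0.05, 0.0386). The arginine methyltransferase gene Carm1 was the positive one (0.31 ± 0.09, 0.0475).

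By complex, Polycomb repressive complex 2 partners had a median corrected ratio of -0.19 with 5 of 9 genes negative on every array. Polycomb repressive complex 1 genes had -0.07 with 3 of 17 (17.6%), near the 14.5% of all named genes. The medians were -0.08 for 19 corepressor partners of the deacetylases, -0.11 for 16 SWI/SNF partners and -0.16 for 11 genes of MLL complexes. Among the last, Wdr5 had -0.35 ± 0.18 (limma adjusted p = 0.0629). They were -0.08 for 17 other lysine methyltransferases, -0.06 for 19 other acetyltransferases and their partners, -0.10 for 15 other remodellers, -0.16 for 9 readers and partners of DNA methylation and -0.11 for 6 arginine methyltransferases. In 4 further lists the gene of smallest p also did not pass: Rnf2 (-0.29 ± 0.13), Rad54l (-0.29 ± 0.11), Supt3 (-0.26 ± 0.22) and Tdg (-0.31 ± 0.10, adjusted p = 0.0503). With 1 array left out, the corrected calls of Carm1, Jarid2, Ss18 and Suds3 were lost on leaving out array 1, 3, 4 or 5 (adjusted p up to 0.192, 0.184, 0.144 and 0.191) and that of Dot1l on leaving out array 1, 4 or 5 (up to 0.135). For Sap30, and for the markers Aurkb, Bub1 and Foxn1, these fits were not examined.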

How the data were processed

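Whole thymus RNA was hybridised to 5 two-colour Agilent arrays with 60-base probes. Per the series design text, the authors read images with GenePix, used GeneTraffic 2.6 and applied lowess normalization within each array. Spots below background or under a raw intensity of 100 were left out of that step. The deposited values are log2 ratios, 1 column per array, with 0 missing of 22575 spots. Spot brightness and flags were not analysed here, so the number of arrays limits the precision.

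The value table and the platform annotation number the spots differently. Names follow an order recovered from the data, with rows and columns of the 215 by 105 grid exchanged, and rest on it. The probes of a gene were averaged, unnamed probes stayed single, and the 20861 features were fitted against 0 with an intercept in limma 3.58.1 (R 4.3.3) with Benjamini-Hochberg adjustment. The local median left out 256 spots below -1.5 on every array, and near the slide edges it used only the spots inside the grid. Array medians were 0, -0.08, -0.01, 0 and 0, so centring stayed as deposited, and the direction of the ratios is not settled. All 80 members matched the reference table by gene number. Fits were tested on simulated data with independent noise of equal spread, a linear column trend and planted effects larger than any member mean. That test does not cover effects of the size reported here.

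Named genes were members past the threshold in both forms, the 8 largest ratios in each direction among members past it in either form, the 2 smallest p of each family, all Ezh, Dnmt and Tet genes, members with disagreeing probes, the smallest p of each partner list, and Hivep3. Sap30, Aurkb, Bub1, Foxn1 and members outside this rule were named after their values were seen. The members and lists were chosen with earlier results of these data known. Alternatives were each array left out, names by deposited numbers, other windows and row and column medians, centring, scaling, single probes, robust fits, array weights and other thresholds.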

Additional observations from a re-analysis of the deposited data

Results flagged for a closer look

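Of 90 sets of 5 array values looked at (45 genes in both forms), 4 held an array set far apart from the other 4, and chance gives about 1 in 20. Kdm1b was 0 on array 3 as deposited and -0.30 there after correction, below all other arrays. Smarca2 was 0.0889 on array 4 as deposited, the single array above 0. Dnmt1 was -0.19 on array 1 after correction, the single array below 0.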

How the results depend on the processing

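As deposited, the count of 29 members past the threshold ran from 4 (without array 5) to 28 (without array 2) with 1 array left out. Of all named genes, 4.45% passed without array 5 and 28.9% without array 2, so the calls of the whole array moved likewise. Hdac10, Kdm3a, Setd6 and Smarcd1 passed in all 5 of these fits. The member count was 7 at a threshold of 0.01, 1 under the 1.5-fold rule and 13 with deposited numbers, which put other genes under these names. After correction, no member passed in every one of these fits. The count of 4 ran from 0 (without array 4, 0.170% of all named genes) to 10 (without array 2, 6.98%). It was 1 without array 1, 3 or 5 (0.345%, 0.648% and 0.139% of all named genes). It was 7 with arrays scaled to one spread, 27 with array weights (24 negative), 19 at a threshold of 0.1 (18 negative), and 0 at 0.01, under the 1.5-fold rule and with deposited numbers. Other windows, row and column medians, centring, single probes and robust fits gave 3 to 5. Shares of all named genes are given for the left-out arrays and thresholds, and not for the other settings. Counts under those other settings, array weights among them, therefore cannot be read as results about the members. The member median stayed negative under every alternative, from -0.15 to -0.09 as deposited and from -0.11 to -0.07 after correction with 1 array left out, except with deposited numbers, where it was 0.0373 and 0.0634.

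Over 13 alternatives that keep the exchanged order, the corrected adjusted p of Hdac10 ran from 0.00291 to 0.071, Hdac7 from 0.0111 to 0.174, Setd6 from 0.016 to 0.13 and Kdm1a from 0.0172 to 0.209. Deposited numbers put the values of other genes under these names, so a sign that turned there describes the numbering and not the gene. Among genes of the naming rule past the threshold with either numbering, deposited numbers turned the deposited sign of Carm1 (-0.31), Chd5 (-0.11), Dnmt3b (0.35), Dnmt3l (0.10), Hdac1 (-0.0494), Hdac10 (0.0867), Hdac11 (-0.22), Jarid2 (0.20), Kdm1a (0.10), Kdm3a (0.37), Setd2 (0.0397), Setd6 (0.0341) and Wdr5 (0.37). They turned the corrected sign of Carm1 (-0.13), Hdac10 (0.14), Hdac7 (0.0592) and Jarid2 (0.10). A single probe gave Kdm2b 0.31 as deposited. The fit against 0 already used the pairing of mutant and wild type, because each array is the ratio of a matched pair and there is 1 group.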
